A study of Drosophila melanogaster with 10 samples.

Results

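T4 and T5 neurons of *Drosophila melanogaster* at 48 h after puparium formation (APF) were compared with the same neurons at 36 h APF, 2 single-cell RNA-sequencing libraries at each stage. A cell belonged to the comparison if its barcode held at least 1000 unique molecular identifiers (UMIs), at most 10% of them on mitochondrial (mt:) genes and at most 10% on heat-shock (Hsp) genes, and at least 3 UMIs of the transcription factor genes *SoxN*, *Sox102F* and *Lim1* together. This kept 4105 and 8946 cells in the 48 h libraries and 1422 and 9081 cells in the 36 h libraries, 23554 of the 31757 barcodes of the 4 libraries. The whole series of 10 libraries from 5 stages holds 56699 such cells among 72871 barcodes. Both stages share 1 genotype, in which the split-Gal4 driver SS00324-Gal4 expresses the membrane-bound reporter UAS-mCD8::GFP in T4/T5 cells, and GFP+ cells were sorted from pupal brains. No treatment was applied. The replicate numbers come from the labels, and the paper calls the 2 libraries of a stage biological replicates. Neither says whether the libraries of a stage came from separate groups of animals, so p-values measure the spread between libraries only.

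T4 and T5 neurons are the first neurons of the fly visual system that respond to the direction of motion. T4 dendrites lie in the medulla and T5 dendrites in the lobula, and the axons of both end in the layers of the lobula plate, where subtypes a to d each serve a direction. Both receive cholinergic and GABAergic synapses and release acetylcholine. In the middle of pupal life their dendrites grow and branch, and a pulse of the steroid hormone ecdysone runs through the animal. The ecdysone receptor switches on a cascade of transcription factors, in which early genes act on later ones.

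The kept cells held 24728302 and 50489118 UMIs in the 48 h libraries, against 10439365 and 36772454 UMIs in the 36 h libraries, with a median per cell of 6186 and 5226 UMIs, against 8224 and 3773 UMIs. The UMIs of all kept cells of a library were added up, and levels are given as CPM, the counts of a gene scaled to a common library sum. Markers of neurons were present in every library, with 1107 and 1059.7 CPM at 48 h against 1829 and 1470.3 CPM at 36 h APF of *elav* and 799.9 and 794 CPM at 48 h against 667 and 693 CPM at 36 h APF of *nSyb*. The 6 glial markers summed to 3.43 to 3.55 CPM at 48 h and 3.57 to 4.46 CPM at 36 h APF. The 4 photoreceptor markers summed to at most 0.465 CPM, and the haemocyte markers *Hml*, *NimC1* and *He* were at 0 in all 4 libraries. Markers of other optic lobe neurons summed to 211 and 246 CPM at 48 h and 223 and 253 CPM at 36 h APF. Most of this was *hth*. The GABAergic marker *VGAT* had 43.3 and 23.9 CPM against 45.7 and 38.6 CPM, whereas the other GABAergic marker, *Gad1*, had at most 0.219 CPM in any library. The 36 h libraries differed in *bsh*, with 4.20 and 4.74 CPM at 48 h against 0 and 11.3 CPM. They also differed in *VGlut*, with 5.34 and 11.7 CPM against 0.386 and 12.0 CPM. The source of these transcripts was not tested. The 6 markers of neuroblasts and dividing cells summed to 2.39 to 2.77 CPM at 48 h and 5.36 to 6.27 CPM at 36 h APF, and none of the 3 that could be tested was called. Most of that difference lay in *mira*, with 0.775 and 1.41 CPM at 48 h against 5.11 and 3.80 CPM at 36 h APF, whereas *CycB* had 0.979 and 0.797 CPM against 0.386 and 0.0821 CPM. Their part in the results was not tested. The replicates of a stage were not alike in every gene: *grn*, a transcription factor gene of subtypes b and c, had 848 and 189.8 CPM at 48 h against 264 and 189 CPM at 36 h APF. *SoxN*, which helped to choose the cells, had 3457 and 1681 CPM at 48 h against 3935 and 2563 CPM at 36 h APF. The levels below are sums over cells, and a difference can lie in the number of cells with a transcript, in the amount per cell or in both.

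Between 48 h and 36 h APF, 326 of 7977 tested genes were higher (4.09%) and 227 were lower (2.85%), with an adjusted p under 0.05 (edgeR's quasi-likelihood test) and a change of at least 2-fold; genes that passed both are called genes. Together these are 553 genes (6.93%). Changes of at least 4-fold were found in 182 of the higher and 78 of the lower genes; 6 of the higher genes had no UMI in the 36 h libraries, and the size of their fitted change rests on the prior count. Over the 5 stages, the highest mean of the 326 higher genes fell on 48 h APF for 84 of them, on 60 h for 122 and on 72 h for 120. That of the 227 lower genes fell on 24 h APF for 169, on 36 h for 51, on 60 h for 1 and on 72 h for 6. The median log2 change over all tested genes was -0.01. The number of calls depended on the libraries used: without replicate 1 of 36 h APF 206 genes were called and without replicate 2 145, of which 192 and 131 were among the 553. Without replicate 1 or 2 of 48 h APF 919 and 1007 genes were called. No gene of the 553 changed the sign of its difference in these 4 fits. Where counts with 1 library left out are given for a group of genes, they stand in the order 48 h APF replicate 1 and 2, 36 h APF replicate 1 and 2.

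**Figure D1:**
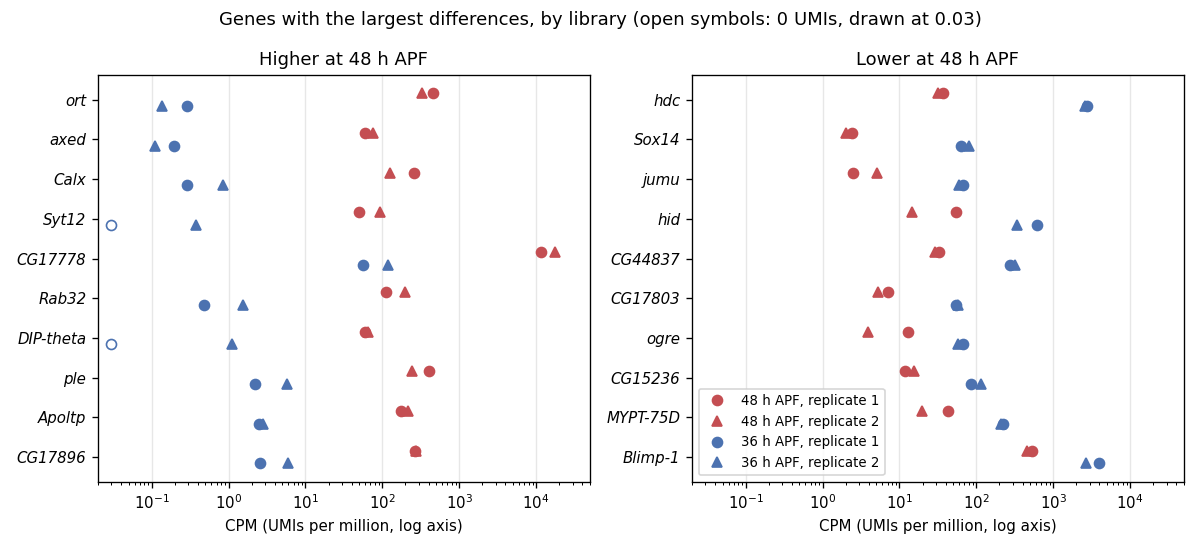
CPM on a log axis in the libraries of 48 h APF (red) and 36 h APF (blue), replicate 1 as circles and replicate 2 as triangles, for the 10 called genes with the largest and the 10 with the smallest log2 change among genes of at least 50 CPM; open symbols are libraries with 0 UMIs. Only genes whose libraries do not overlap between the stages were drawn. The 48 h libraries therefore lie to the right of the 36 h libraries on the left panel and to their left on the right panel by choice. The widest gap is that of *ort*.

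Among called genes of at least 50 CPM in their higher stage, the largest change was that of *ort* (chromosome 3R, 19659748 to 19663672, genome build BDGP6.54), a chloride channel opened by histamine, the transmitter of photoreceptors. It had 459.8 and 329 CPM in the 48 h libraries, against 0.289 and 0.137 CPM in the 36 h libraries, the 36 h values resting on 3 and 5 UMIs (log2 change 11.26 ± 0.50 (SE), adjusted p = 0.000726). At least 1 UMI of *ort* was found in 82.0% and 74.1% of the kept cells at 48 h against 0.211% and 0.0551% at 36 h APF. Its mean CPM was 0.00898, 19.6 and 0.963 at 24, 60 and 72 h APF, so that the 48 h libraries stood above those of every other stage. *axed* (chromosome 3L, 6609325 to 6619113), which is needed for the breakdown of injured axons, had 59.8 and 75.3 CPM in the 48 h libraries, against 0.193 and 0.109 CPM in the 36 h libraries (log2 change 9.15 ± 0.37 (SE), adjusted p = 0.000726). Unlike *ort*, it stayed high, with a mean of 203 CPM at 60 h and 186 CPM at 72 h APF. *Calx* (chromosome 3R, 20978183 to 21015613), a sodium/calcium exchanger that clears calcium from the cell, had 255 and 127 CPM in the 48 h libraries, against 0.289 and 0.848 CPM in the 36 h libraries (log2 change 8.35 ± 0.61 (SE), adjusted p = 0.00239). *Syt12* (chromosome X, 13359248 to 13368179), of the synaptotagmin family of vesicle proteins, had 50.5 and 92.0 CPM in the 48 h libraries, against 0 and 0.383 CPM in the 36 h libraries (log2 change 8.17 ± 0.68 (SE), adjusted p = 0.00295). The libraries of the stages were far apart in both genes, and both were higher still at 60 h APF, with means of 265 CPM of *Calx* and 355 CPM of *Syt12*. *Rab32* (chromosome 2R, 9177864 to 9186342), a small GTPase of lysosome-related organelles, had 113 and 195 CPM in the 48 h libraries, against 0.482 and 1.56 CPM in the 36 h libraries (log2 change 7.23 ± 0.56 (SE), adjusted p = 0.00264). *Apoltp* (chromosome 2L, 9634179 to 9656026), an apolipoprotein that carries lipids, had 175 and 219 CPM in the 48 h libraries, against 2.51 and 2.84 CPM in the 36 h libraries (log2 change 6.35 ± 0.28 (SE), adjusted p = 0.000726). Both peaked at 60 h APF, at 362 and 293 CPM.

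*CG17778* (chromosome X, 494614 to 496369) was the most abundant of these genes. It had 11438 and 17634 CPM in the 48 h libraries, against 55.8 and 118 CPM in the 36 h libraries (log2 change 7.55 ± 0.55 (SE), adjusted p = 0.00239). It took 1.14% and 1.76% of all UMIs of the 48 h libraries, which put it at rank 3 and 1 by CPM among the tested genes, whereas at 36 h APF it was at rank 2348 and 1393. Before and after, it was low, with means of 129, 173 and 75.5 CPM at 24, 60 and 72 h APF. Its neighbour *CG17896* (chromosome X, 490787 to 493495, opposite strand), separated from it by 1118 bases, had a like course at a lower level. It had 265 and 274 CPM in the 48 h libraries, against 2.60 and 5.94 CPM in the 36 h libraries (log2 change 6.10 ± 0.42 (SE), adjusted p = 0.00219), and means of 5.17, 10.3 and 8.41 CPM at 24, 60 and 72 h APF. *ple* (chromosome 3L, 6713356 to 6719525), tyrosine hydroxylase, the rate-limiting enzyme of dopamine synthesis, also peaked at 48 h APF. It had 399 and 246 CPM in the 48 h libraries, against 2.22 and 5.69 CPM in the 36 h libraries (log2 change 6.47 ± 0.54 (SE), adjusted p = 0.00295). The next enzyme of that pathway, *Ddc*, had 0.489 and 0.438 CPM at 48 h against 0.578 and 0.766 CPM at 36 h APF. The vesicular monoamine transporter *Vmat* had at most 0.438 CPM in any of the 4 libraries, so both were near 0 beside *ple*. Only 16.4% and 16.8% of the kept cells at 48 h held a UMI of *ple*, against 1.13% and 0.870% at 36 h APF. At 60 h and 72 h APF the mean of *ple* was 37.6 and 13.6 CPM.

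The largest fall among genes of that level was that of *hdc* (chromosome 3R, 30277932 to 30372382), headcase, a regulator of branching and of progenitor cells that later annotations call *heca*. It fell to 36.9 and 31.7 CPM in the 48 h libraries, against 2717 and 2601 CPM in the 36 h libraries (log2 change -6.13 ± 0.31 (SE), adjusted p = 0.00108). A UMI of *hdc* was found in 15.4% and 12.7% of the kept cells at 48 h against 95.8% and 96.1% at 36 h APF. At 24 h APF its mean was 6724 CPM, and at 72 h APF it was 13.1 CPM. *jumu* (chromosome 3R, 10350182 to 10361612), a forkhead transcription factor, had 2.49 and 5.16 CPM in the 48 h libraries, against 66.4 and 59.9 CPM in the 36 h libraries (log2 change -3.88 ± 0.38 (SE), adjusted p = 0.00605). *CG17803* (chromosome 3R, 17798877 to 17801512) had 7.01 and 5.20 CPM in the 48 h libraries, against 54.9 and 57.2 CPM in the 36 h libraries (log2 change -3.05 ± 0.24 (SE), adjusted p = 0.00264). Both had their highest mean at 24 h APF and were under 2 CPM at 60 h and 72 h APF. *CG15236* (chromosome 2R, 6828356 to 6838360) had 11.9 and 15.3 CPM in the 48 h libraries, against 86.1 and 116 CPM in the 36 h libraries (log2 change -2.73 ± 0.25 (SE), adjusted p = 0.00416). *CG44837* (chromosome 3L, 11850645 to 11938872) had 32.8 and 28.9 CPM in the 48 h libraries, against 272 and 323 CPM in the 36 h libraries (log2 change -3.12 ± 0.23 (SE), adjusted p = 0.00251). The annotation of *CG44837* overlaps *SdhAL*, *CG5906* and *CG5897* on its strand, so its reads are not assigned with certainty. *MYPT-75D* (chromosome 3L, 18625959 to 18667177), a targeting subunit of myosin phosphatase, had 43.1 and 19.8 CPM in the 48 h libraries, against 222 and 207 CPM in the 36 h libraries (log2 change -2.62 ± 0.41 (SE), adjusted p = 0.0194). It was high again at 72 h APF, with a mean of 134 CPM. The call of *MYPT-75D* was lost without either 36 h library (adjusted p 0.0697 to 0.0699).

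Genes of the ecdysone response changed in both directions: of 26 tested, 3 were higher and 5 lower, beside 4.09% and 2.85% over all tested genes. The fall was largest for *Sox14* (chromosome 2R, 23978801 to 23985177), a transcription factor that ecdysone induces and that neurons need for pruning. It had 2.41 and 1.99 CPM in the 48 h libraries, against 63.3 and 79.4 CPM in the 36 h libraries (log2 change -4.87 ± 0.24 (SE), adjusted p = 0.00108). *Blimp-1* (chromosome 3L, 5630983 to 5652094), an ecdysone-inducible repressor whose decay times the cascade in prepupae, was the most abundant of the 5. It had 538 and 452 CPM in the 48 h libraries, against 3961 and 2692 CPM in the 36 h libraries (log2 change -2.61 ± 0.34 (SE), adjusted p = 0.0124). At 60 h and 72 h APF it had all but gone, with means of 1.99 and 1.22 CPM. The nuclear receptor gene *Hr39* had 20.8 and 27.3 CPM in the 48 h libraries, against 147 and 116 CPM in the 36 h libraries (log2 change -2.31 ± 0.28 (SE), adjusted p = 0.00992). The other falls were those of *Eip71CD*, a methionine sulfoxide reductase, and of *br*, the early gene broad, with log2 changes of -2.91 ± 0.24 and -1.47 ± 0.30 (SE; adjusted p = 0.00281 and 0.0432). Most of the decline of *br*, whose mean was 853 CPM at 24 h APF, lay before 36 h APF, where its libraries had 38.3 and 40.7 CPM.

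The nuclear receptor genes *Hr3* and *Hr4*, which act in the middle of the cascade, rose. *Hr4* had 8739.9 and 9115 CPM in the 48 h libraries, against 3124 and 2915 CPM in the 36 h libraries (log2 change 1.71 ± 0.27 (SE), adjusted p = 0.0203). *Hr3* had 1201 and 1655 CPM in the 48 h libraries, against 421 and 270.3 CPM in the 36 h libraries (log2 change 2.18 ± 0.36 (SE), adjusted p = 0.0223). Both had been near 0 or low at 24 h APF, with means of 0.755 CPM of *Hr3* and 29.2 CPM of *Hr4*, and *Hr4* was back at 1104 CPM by 60 h APF. *Oatp74D*, which imports ecdysone into cells, rose to 229 and 171 CPM in the 48 h libraries, against 75.6 and 48.7 CPM in the 36 h libraries (log2 change 1.82 ± 0.34 (SE), adjusted p = 0.0323). The receptor gene *EcR* itself was not called, with 334 and 238 CPM in the 48 h libraries, against 964 and 679.6 CPM in the 36 h libraries (log2 change -1.39 ± 0.33 (SE), adjusted p = 0.0637). Neither was *Eip75B*, the most abundant gene of the list after *Hr4* at 48 h APF, with 5483 and 4855 CPM in the 48 h libraries, against 5408 and 4124 CPM in the 36 h libraries (log2 change 0.26 ± 0.30 (SE), adjusted p = 0.674). *ftz-f1*, which follows *Hr3* in the prepupal cascade, was at or under 1 CPM, with 0.530 and 0.737 CPM in the 48 h libraries, against 0.193 and 0.301 CPM in the 36 h libraries, before a mean of 1397 CPM at 60 h APF. The calls of *Sox14*, *Blimp-1* and *Hr39* held without any 1 library. The calls of *Hr4* and *Oatp74D* were lost without either 36 h library (adjusted p 0.0579 to 0.177). *Hr3* lost its call without 36 h APF replicate 2 (adjusted p = 0.148). Among ecdysone response genes, 3, 5, 1 and 0 were higher and 6, 6, 4 and 4 were lower with 1 library left out.

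**Figure D2:**
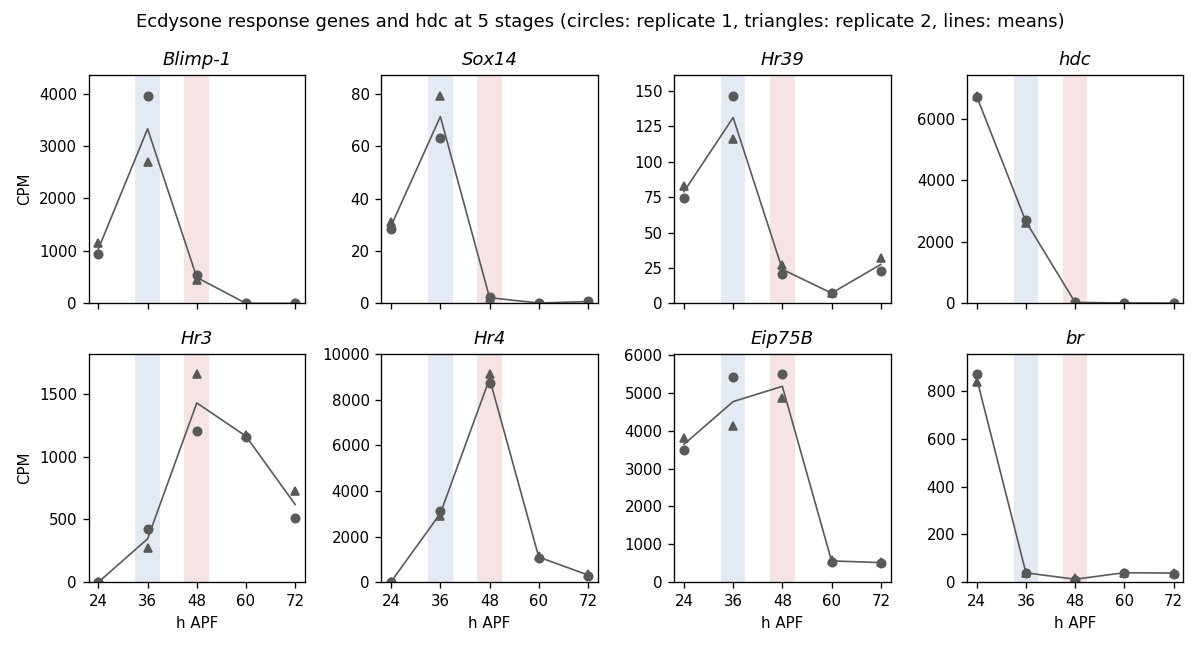
CPM (linear axes from 0) of 7 ecdysone response genes and *hdc* at 24, 36, 48, 60 and 72 h APF, with 1 point for each library and lines through the stage means; the 36 h and 48 h stages are shaded blue and red. *Blimp-1*, *Sox14* and *Hr39* have their highest mean at 36 h APF and *Hr3* and *Hr4* theirs at 48 h APF, while *br* and *hdc* are highest at 24 h APF.

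Ion channel genes were mostly higher or not called: of 35 tested, 16 were higher and 1 was lower, beside 4.09% and 2.85% over all tested genes. Their median log2 change was 1.12 against -0.01 over all genes. *Ih*, the channel of the hyperpolarisation-activated current, had 321 and 293 CPM in the 48 h libraries, against 15.1 and 16.6 CPM in the 36 h libraries (log2 change 4.43 ± 0.24 (SE), adjusted p = 0.00142). Its mean at 24 h APF had been 207 CPM. The delayed-rectifier potassium channel gene *Shab* had 165 and 232 CPM in the 48 h libraries, against 12.0 and 14.0 CPM in the 36 h libraries (log2 change 4.08 ± 0.28 (SE), adjusted p = 0.00219). *para*, the voltage-gated sodium channel behind the action potential, had 2119.6 and 3107 CPM in the 48 h libraries, against 316 and 247 CPM in the 36 h libraries (log2 change 3.35 ± 0.35 (SE), adjusted p = 0.00693). In all 3 genes the lowest 48 h library was several times the highest 36 h library. Among the others, *slo*, the calcium-activated potassium channel, had 760.5 and 1284 CPM at 48 h against 13.8 and 36.7 CPM at 36 h APF (log2 change 5.50 ± 0.57). The presynaptic calcium channel *cac* had 1736 and 2197 CPM at 48 h against 859.9 and 742 CPM at 36 h APF (log2 change 1.44 ± 0.28). *KCNQ* and *Ca-alpha1D* were under 3 CPM at 36 h APF and reached at most 10.8 and 29.7 CPM at 48 h APF. Accessory subunits were among them: *Teh1*, which serves *para*, had 133 and 199.6 CPM at 48 h against 29.4 and 46.6 CPM at 36 h APF. *unc79*, *unc80* and *Mid1*, partners of the sodium leak channel, had log2 changes of 3.02, 1.66 and 1.47. The only lower member was *Task6*, a leak potassium channel, with 115 and 145 CPM in the 48 h libraries, against 347 and 368 CPM in the 36 h libraries (log2 change -1.32 ± 0.24 (SE), adjusted p = 0.0295). *Sh*, the Shaker potassium channel and the most abundant member not called, had 1909.7 and 2733 CPM in the 48 h libraries, against 2229.8 and 1583 CPM in the 36 h libraries (log2 change 0.42 ± 0.33 (SE), adjusted p = 0.521). Its levels overlap between the stages. Ion channel genes called higher numbered 18, 19, 9 and 5 with 1 library left out. The call of *Task6* was lost without either 36 h library (adjusted p 0.151 to 0.197). *para* lost its call without 36 h APF replicate 2 (adjusted p = 0.0569).

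Of 42 transmitter receptor genes tested, 10 were higher and 2 lower, beside 4.09% and 2.85% over all tested genes. The median log2 change of the list was 0.56. The most abundant member was *Rdl*, the GABA-gated chloride channel, which had 5664 and 6146 CPM in the 48 h libraries, against 295 and 310.1 CPM in the 36 h libraries (log2 change 4.43 ± 0.29 (SE), adjusted p = 0.00214). It stayed at a mean of 5414 CPM at 60 h and 3515 CPM at 72 h APF. The muscarinic acetylcholine receptor gene *mAChR-A* had 151 and 153 CPM in the 48 h libraries, against 24.9 and 22.6 CPM in the 36 h libraries (log2 change 2.82 ± 0.23 (SE), adjusted p = 0.00292). Of the nicotinic subunits, *nAChRbeta1* had 719.6 and 545 CPM at 48 h against 236 and 205 CPM at 36 h APF (log2 change 1.66 ± 0.28 (SE)). *nAChRalpha5* had 169 and 498 CPM at 48 h against 68.5 and 75.5 CPM at 36 h APF (log2 change 2.36 ± 0.51 (SE)), and its 48 h libraries differed from each other. *nAChRalpha1*, the most abundant member not called, had 632 and 712 CPM at 48 h against 546 and 415 CPM at 36 h APF (log2 change 0.62 ± 0.28 (SE), adjusted p = 0.245). The higher members included 4 receptors for monoamines, with log2 changes of 1.91 for the dopamine receptor *Dop1R1*, 1.93 for *Octbeta2R*, 1.42 for *Oct-TyrR* and 4.34 for the serotonin receptor *5-HT7*. The 2 lower members belong to ionotropic glutamate signalling: *Nmdar2*, an NMDA receptor subunit, had 4.36 and 3.80 CPM in the 48 h libraries, against 24.7 and 25.2 CPM in the 36 h libraries (log2 change -2.46 ± 0.21 (SE), adjusted p = 0.00358). *Neto*, an auxiliary protein of glutamate receptors, had 2.61 and 1.81 CPM at 48 h against 12.1 and 9.96 CPM at 36 h APF (log2 change -2.18 ± 0.33, adjusted p = 0.0173). Transmitter receptor genes called higher numbered 13, 13, 5 and 8 with 1 library left out.

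Of 30 tested genes of neuropeptides and their receptors, 11 were higher and none was lower, beside 4.09% and 2.85% over all tested genes. The median log2 change of the list was 1.14. *SIFaR*, the receptor of SIFamide, had 3202 UMIs in the 48 h libraries against 1 UMI in the 36 h libraries, 39.6 and 44.4 CPM against 0 and 0.0274 CPM. This is a ratio of 2011 with a 95% counting interval of 361 to 79445 (adjusted p = 0.000726). Its mean went on to 395 CPM at 60 h and 515 CPM at 72 h APF. The neuropeptide F receptor gene *NPFR* had 23.9 and 35.6 CPM in the 48 h libraries, against 0.289 and 0.711 CPM in the 36 h libraries (log2 change 5.86 ± 0.41 (SE), adjusted p = 0.00219). The allatostatin C receptor gene *AstC-R2* had 34.3 and 18.6 CPM in the 48 h libraries, against 1.45 and 0.875 CPM in the 36 h libraries (log2 change 4.77 ± 0.47 (SE), adjusted p = 0.00589). *sNPF-R*, the receptor of short neuropeptide F, was the most abundant called member, with 371 and 452 CPM at 48 h against 136 and 130.0 CPM at 36 h APF (log2 change 1.77 ± 0.24). *Pdfr*, the receptor of the clock peptide PDF, differed between the 48 h libraries, with 72.3 and 10.7 CPM in the 48 h libraries, against 1.54 and 1.20 CPM in the 36 h libraries (log2 change 5.13 ± 0.99 (SE), adjusted p = 0.0365). *TkR99D*, a tachykinin receptor and the most abundant member not called, had 97.1 and 116 CPM in the 48 h libraries, against 113 and 90.6 CPM in the 36 h libraries (log2 change 0.21 ± 0.25 (SE), adjusted p = 0.681). Neuropeptide and receptor genes called higher numbered 13, 13, 6 and 6 with 1 library left out.

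**Figure D3:**
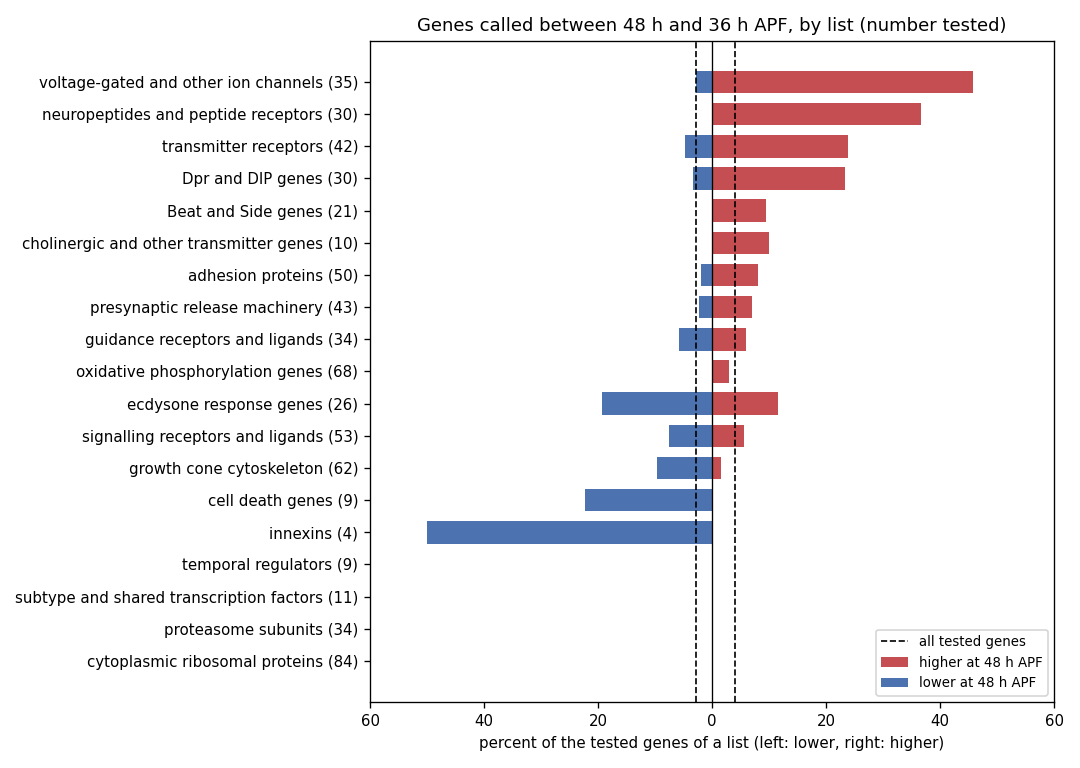
Percent of the tested genes of each list that were called higher (red, to the right) or lower (blue, to the left) at 48 h than at 36 h APF, with the number tested in brackets; dashed lines mark 4.09% higher and 2.85% lower over all tested genes. The widest red bar is that of the ion channels, with 16 of 35. The widest blue bar is that of the innexins, with 2 of 4. Also beyond the dashed line are the blue bars of cell death (2 of 9), the ecdysone response (5 of 26) and the growth cone cytoskeleton (6 of 62). So are those of signalling (4 of 53), guidance (2 of 34) and transmitter receptor genes (2 of 42). Those of Dpr and DIP genes (1 of 30) and ion channels (1 of 35) end close to it.

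Dpr proteins and their DIP partners are immunoglobulin proteins of the cell surface that bind each other in fixed pairs and take part in the choice of synaptic partners. Of 30 tested, 7 were higher and 1 lower, beside 4.09% and 2.85% over all tested genes. The median log2 change of the list was 0.71. *DIP-theta* (chromosome 2L, 5626291 to 5658560) had 60.4 and 65.6 CPM in the 48 h libraries, against 0 and 1.12 CPM in the 36 h libraries (log2 change 6.57 ± 0.73 (SE), adjusted p = 0.00805). It overlaps *lncRNA:CR44822* on its strand. *dpr16* had 109 and 103 CPM in the 48 h libraries, against 2.22 and 2.82 CPM in the 36 h libraries (log2 change 5.53 ± 0.25 (SE), adjusted p = 0.000726). *dpr11* had 1189.7 and 1114 CPM in the 48 h libraries, against 329 and 274 CPM in the 36 h libraries (log2 change 2.07 ± 0.27 (SE), adjusted p = 0.0116). The highest mean of *dpr11* was at 48 h APF and that of *dpr16* at 60 h APF, and *dpr11* had been at 11.7 CPM at 24 h APF. *dpr1*, the most abundant called member, had 1577 and 1629.7 CPM at 48 h against 575 and 511 CPM at 36 h APF (log2 change 1.71 ± 0.25). *dpr12* was the lower member, with 320.1 and 339 CPM in the 48 h libraries, against 1031 and 914 CPM in the 36 h libraries (log2 change -1.42 ± 0.25 (SE), adjusted p = 0.0267). *dpr9*, not called, had 1876 and 1077 CPM at 48 h against 1237 and 786 CPM at 36 h APF. Among Dpr and DIP genes, 10, 12, 3 and 2 were higher and 2, 1, 0 and 0 were lower with 1 library left out. The call of *dpr12* was lost without either 36 h library (adjusted p 0.135 to 0.153). *dpr11* lost its call without 36 h APF replicate 2 (adjusted p = 0.108).

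The Beat family and its Side partners are another family of paired surface proteins. Of 21 tested, 2 were higher and none lower, beside 4.09% higher and 2.85% lower over all tested genes. *beat-VI* had 1116 and 1247 CPM in the 48 h libraries, against 118 and 102 CPM in the 36 h libraries (log2 change 3.57 ± 0.28 (SE), adjusted p = 0.00263), its highest mean of the 5 stages. *side-III* had 247 and 149.7 CPM in the 48 h libraries, against 65.1 and 58.3 CPM in the 36 h libraries (log2 change 1.83 ± 0.32 (SE), adjusted p = 0.0265). *beat-IIa*, the most abundant member not called, had 2191 and 624 CPM in the 48 h libraries, which enclose the 1498 and 973 CPM of the 36 h libraries. Among 50 other adhesion genes, 4 were higher and 1 lower, beside the same 4.09% and 2.85%. *ed*, echinoid, had 238 and 163 CPM in the 48 h libraries, against 31.5 and 25.7 CPM in the 36 h libraries (log2 change 2.96 ± 0.31 (SE), adjusted p = 0.00716). *klg*, klingon, had 3104 and 3236 CPM in the 48 h libraries, against 1040.3 and 1244 CPM in the 36 h libraries (log2 change 1.63 ± 0.25 (SE), adjusted p = 0.0184). *Con*, connectin, had 745 and 504 CPM in the 48 h libraries, against 187 and 138 CPM in the 36 h libraries (log2 change 2.08 ± 0.33 (SE), adjusted p = 0.0208). *rst*, roughest, fell to 228 and 199 CPM in the 48 h libraries, against 609.7 and 527 CPM in the 36 h libraries (log2 change -1.27 ± 0.25 (SE), adjusted p = 0.0403). *Ten-a*, a teneurin, was not called, with 4958 and 5272 CPM at 48 h against 4061 and 3680.4 CPM at 36 h APF. The calls of *side-III*, *klg* and *Con* were lost without either 36 h library (adjusted p 0.0662 to 0.182). *ed* lost its call without 36 h APF replicate 2 (adjusted p = 0.0569). *rst* lost its call without 48 h APF replicate 2 or 36 h APF replicate 1 or 36 h APF replicate 2 (adjusted p 0.0588 to 0.217). Adhesion genes called higher numbered 7, 9, 1 and 0 with 1 library left out.

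Of 34 tested guidance receptors and ligands, 2 were higher and 2 lower, small counts beside 4.09% higher and 2.85% lower over all tested genes. The higher ones were both receptors of the Ryk family for Wnt proteins. *Drl-2* had 91.7 and 114 CPM in the 48 h libraries, against 19.5 and 18.8 CPM in the 36 h libraries (log2 change 2.57 ± 0.23 (SE), adjusted p = 0.00426). *drl*, derailed, had 88.7 and 72.3 CPM in the 48 h libraries, against 25.7 and 33.2 CPM in the 36 h libraries (log2 change 1.60 ± 0.23 (SE), adjusted p = 0.0150). Of the lower ones, *Sema2b*, a secreted semaphorin, had 63.8 and 51.0 CPM in the 48 h libraries, against 226 and 193 CPM in the 36 h libraries (log2 change -1.73 ± 0.26 (SE), adjusted p = 0.0171). *otk*, off-track, had 82.6 and 81.5 CPM in the 48 h libraries, against 373 and 266 CPM in the 36 h libraries (log2 change -1.82 ± 0.29 (SE), adjusted p = 0.0192). *Dscam2*, the most abundant member not called, had 1993 and 1596 CPM in the 48 h libraries, against 3921 and 3478 CPM in the 36 h libraries (log2 change -0.90 ± 0.28 (SE), adjusted p = 0.120). The calls of *drl*, *Sema2b* and *otk* were lost without either 36 h library (adjusted p 0.0569 to 0.106). *Drl-2* lost its call without 36 h APF replicate 2 (adjusted p = 0.0533). Among guidance genes, 4, 5, 1 and 1 were higher and 6, 3, 0 and 1 were lower with 1 library left out.

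The list of presynaptic genes, the presynaptic release machinery in the plot of percentages by list, holds the release machinery and the synaptic adhesion genes neurexin and neuroligin, which are not part of that machinery. Of 43 tested, 3 were higher and 1 lower, with a median log2 change of 0.39. Over all tested genes 4.09% were higher and 2.85% lower. *Rbp*, the RIM-binding protein that ties calcium channels to the active zone, had 249 and 381 CPM in the 48 h libraries, against 18.3 and 16.3 CPM in the 36 h libraries (log2 change 4.33 ± 0.33 (SE), adjusted p = 0.00251). *Frq1*, the calcium sensor frequenin, had 395 and 627 CPM in the 48 h libraries, against 126 and 115 CPM in the 36 h libraries (log2 change 2.23 ± 0.31 (SE), adjusted p = 0.0149). It went on to a mean of 6821 CPM at 72 h APF. *Nlg4*, one of the neuroligins, had 21.5 and 38.7 CPM in the 48 h libraries, against 10.1 and 12.5 CPM in the 36 h libraries (log2 change 1.56 ± 0.31 (SE), adjusted p = 0.0405). *Rph*, rabphilin, was lower, with 14.8 and 13.2 CPM in the 48 h libraries, against 36.1 and 48.9 CPM in the 36 h libraries (log2 change -1.45 ± 0.21 (SE), adjusted p = 0.0159). The active zone scaffold *brp* had 629.9 and 768 CPM at 48 h against 620.1 and 380.4 CPM at 36 h APF and was not called. *Nlg2*, the most abundant member not called, had 3524 and 4542 CPM at 48 h against 3998 and 3289 CPM at 36 h APF. Of the genes that make T4 and T5 cholinergic, neither was called. *ChAT*, choline acetyltransferase, had 39.1 and 37.5 CPM at 48 h against 35.7 and 37.1 CPM at 36 h APF. *VAChT*, the vesicular transporter, had 259.5 and 268 CPM at 48 h against 278 and 213 CPM at 36 h APF. *ChAT* and *VAChT* overlap on the same strand, so their reads are not assigned with certainty. *Ace*, acetylcholinesterase, had 339 and 513 CPM in the 48 h libraries, against 193 and 148 CPM in the 36 h libraries (log2 change 1.46 ± 0.32 (SE), adjusted p = 0.0509). Of the 10 tested genes of this list only *ple* was called. The calls of *Frq1* and *Nlg4* were lost without either 36 h library (adjusted p 0.0715 to 0.193). *Rph* lost its call without 36 h APF replicate 2 (adjusted p = 0.101). Presynaptic genes called higher numbered 6, 9, 1 and 1 with 1 library left out.

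Of 62 tested genes of the growth cone cytoskeleton, 6 were lower and 1 higher, beside 2.85% lower and 4.09% higher over all tested genes. The median log2 change of the list was -0.06. *Act5C*, a cytoplasmic actin, had 567 and 498 CPM in the 48 h libraries, against 2300.4 and 2625 CPM in the 36 h libraries (log2 change -2.06 ± 0.25 (SE), adjusted p = 0.0105). *tsr*, cofilin, which severs actin filaments, had 323 and 352 CPM in the 48 h libraries, against 1439 and 1806 CPM in the 36 h libraries (log2 change -2.11 ± 0.25 (SE), adjusted p = 0.00918). *sn*, fascin, which bundles them, had 80.5 and 87.3 CPM in the 48 h libraries, against 367 and 359.9 CPM in the 36 h libraries (log2 change -1.97 ± 0.23 (SE), adjusted p = 0.00890). All 3 had their highest mean at 24 h APF, and at 60 h APF the means of *tsr* and *sn* were 35.7 and 27.1 CPM. *chic*, profilin, *DAAM*, a formin, and *shot*, which links actin to microtubules, had log2 changes of -1.45 ± 0.23, -1.53 ± 0.22 and -1.15 ± 0.23. The higher member, *betaTub97EF*, a beta-tubulin, had 4.32 and 5.10 CPM at 48 h against 0.193 and 0.465 CPM at 36 h APF. *futsch*, the microtubule-associated protein, was not called, with 3238 and 2253 CPM at 48 h against 1836 and 1608 CPM at 36 h APF (log2 change 0.82 ± 0.30 (SE), adjusted p = 0.177). Cytoskeleton genes called lower numbered 5, 6, 3 and 0 with 1 library left out. *Act5C*, *tsr* and *sn* lost their calls without 36 h APF replicate 2 (adjusted p 0.0635 to 0.0717).

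Of 4 tested innexins, the gap junction proteins of insects, 2 were lower, beside 2.85% over all tested genes. *ogre* (chromosome X, 6973620 to 6991318) had 12.8 and 3.88 CPM in the 48 h libraries, against 66.9 and 57.4 CPM in the 36 h libraries (log2 change -2.77 ± 0.56 (SE), adjusted p = 0.0410). *Inx2* had 16.6 and 14.2 CPM in the 48 h libraries, against 90.4 and 71.3 CPM in the 36 h libraries (log2 change -2.25 ± 0.26 (SE), adjusted p = 0.00853). *shakB*, the innexin with the most transcripts here, was not called, with 1548 and 1811 CPM in the 48 h libraries, against 2349.9 and 1942 CPM in the 36 h libraries (log2 change -0.21 ± 0.27 (SE), adjusted p = 0.700). Of 9 cell death genes, 2 were lower, beside the same 2.85%. *hid* (chromosome 3L, 18167745 to 18185641), which frees caspases from their inhibitor, had 54.0 and 14.7 CPM in the 48 h libraries, against 621 and 336 CPM in the 36 h libraries (log2 change -3.67 ± 0.71 (SE), adjusted p = 0.0364). *grim* had 2.65 and 1.73 CPM at 48 h against 14.1 and 8.70 CPM at 36 h APF (log2 change -2.24 ± 0.41, adjusted p = 0.0308). *Diap1*, that inhibitor, was not called, with 711 and 507 CPM at 48 h against 785 and 824 CPM at 36 h APF. The calls of *ogre* and *hid* were lost without either 36 h library (adjusted p 0.0689 to 0.108). Cell death genes called lower numbered 3, 3, 0 and 0 with 1 library left out.

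Of 53 tested signalling receptors, ligands and their regulators, 3 were higher and 4 lower, small counts beside 4.09% and 2.85% over all tested genes. *ptc*, the Hedgehog receptor, had 27.9 and 22.4 CPM in the 48 h libraries, against 10.6 and 13.1 CPM in the 36 h libraries (log2 change 1.23 ± 0.22 (SE), adjusted p = 0.0283). *sty*, sprouty, an inhibitor of receptor tyrosine kinase signalling, had 287 and 372 CPM in the 48 h libraries, against 152 and 139.9 CPM in the 36 h libraries (log2 change 1.32 ± 0.25 (SE), adjusted p = 0.0349). *neur*, neuralized, a ubiquitin ligase for Notch ligands, had 49.9 and 28.3 CPM in the 48 h libraries, against 15.7 and 11.6 CPM in the 36 h libraries (log2 change 1.67 ± 0.35 (SE), adjusted p = 0.0480). Among the lower ones, *fz*, the Wnt receptor frizzled, had 102 and 116 CPM in the 48 h libraries, against 418 and 406 CPM in the 36 h libraries (log2 change -1.78 ± 0.23 (SE), adjusted p = 0.0124). *babo*, an activin receptor, had 82.7 and 87.1 CPM in the 48 h libraries, against 254 and 239 CPM in the 36 h libraries (log2 change -1.39 ± 0.22 (SE), adjusted p = 0.0201). *brk*, the repressor brinker of the BMP pathway, had 12.1 and 19.8 CPM in the 48 h libraries, against 73.3 and 58.1 CPM in the 36 h libraries (log2 change -1.90 ± 0.31 (SE), adjusted p = 0.0220). The insulin receptor *InR* had 163 and 223 CPM at 48 h against 446 and 548 CPM at 36 h APF (log2 change -1.21 ± 0.26, adjusted p = 0.0487). *Pvf3*, a growth factor and the most abundant member not called, had 2282 and 2534 CPM at 48 h against 2737 and 2558 CPM at 36 h APF. The calls of *ptc*, *sty*, *neur*, *fz*, *babo* and *brk* were lost without either 36 h library (adjusted p 0.0714 to 0.272). Among signalling genes, 6, 3, 0 and 0 were higher and 5, 6, 0 and 0 were lower with 1 library left out.

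None of 11 tested transcription factor genes that tell T4/T5 cells and their subtypes apart was called. Over all tested genes 6.93% were called, so a list this short can easily hold no call. *SoxN*, *Sox102F* and *Lim1* are among the 11 and were used to choose the cells, so nothing can be read from their levels. *acj6* had 968 and 834 CPM at 48 h against 599 and 519 CPM at 36 h APF. *dac* had 388 and 238 CPM at 48 h against 489 and 228 CPM at 36 h APF, and *bi* (omb) had 481 and 422 CPM at 48 h against 691 and 553 CPM at 36 h APF. None of the 9 temporal regulators was called either, again a short list beside that share. *Syp*, the most abundant, had 3561 and 3807 CPM in the 48 h libraries, against 5049.9 and 4891 CPM in the 36 h libraries (log2 change -0.29 ± 0.26 (SE), adjusted p = 0.573). Nuclear genes of oxidative phosphorylation were seldom called: 67 of 68 fitted changes were above 0, against 3929 of 7977 over all genes, and the median log2 change was 0.60. *Cyt-c-p*, cytochrome c, was called, with 259 and 359 CPM at 48 h against 99.2 and 108 CPM at 36 h APF (log2 change 1.72 ± 0.26 (SE), adjusted p = 0.0169). The other called member was *ND-B14*, a complex I subunit, with 241 and 309 CPM at 48 h against 121 and 136 CPM at 36 h APF (log2 change 1.24 ± 0.24 (SE), adjusted p = 0.0343). Scaling by library totals in place of TMM factors left 66 of 68 above 0 and moved the median over all genes to -0.16. Of 84 ribosomal protein genes and 34 proteasome genes none was called, with median log2 changes of -0.14 and -0.46. None of 15 mitochondrial genes and 14 heat-shock genes was called, but cells had been kept only below a limit on the share of each set, which bounds these levels. The most abundant heat-shock gene, *Hsp26*, had 11066 and 6374 CPM at 48 h against 6434 and 10299 CPM at 36 h APF. Of 13 glycolysis genes 1 was lower, beside 2.85% of all tested genes. This was *Pgi*, glucose-6-phosphate isomerase, with 10.5 and 10.4 CPM in the 48 h libraries, against 27.7 and 42.6 CPM in the 36 h libraries (log2 change -1.59 ± 0.23 (SE), adjusted p = 0.0163). The calls of *Cyt-c-p* and *ND-B14* were lost without either 36 h library (adjusted p 0.110 to 0.250). *Pgi* lost its call without 36 h APF replicate 2 (adjusted p = 0.0893). Oxidative phosphorylation genes called higher numbered 12, 4, 0 and 0 with 1 library left out.

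Among 13 genes of the activity and stress response, 2 were higher and 2 lower, small counts beside the 4.09% and 2.85% over all tested genes. *CG14186* had 32.9 and 49.2 CPM at 48 h against 14.2 and 19.0 CPM at 36 h APF (log2 change 1.46 ± 0.26 (SE), adjusted p = 0.0295). *Gadd45* had 74.3 and 82.9 CPM at 48 h against 197 and 247 CPM at 36 h APF (log2 change -1.34 ± 0.22 (SE), adjusted p = 0.0217). *Xrp1* had 12.7 and 17.7 CPM at 48 h against 39.2 and 48.1 CPM at 36 h APF (log2 change -1.37 ± 0.23 (SE), adjusted p = 0.0242). The heat-shock genes took 3.73% and 3.07% of the UMIs of kept cells in the 48 h libraries, against 3.57% and 5.06% in the 36 h libraries. Of 399 tested long non-coding RNAs, 18 were higher and 14 lower, shares near those over all tested genes (4.09% and 2.85%). *lncRNA:CR43334* had 33.1 and 36.6 CPM in the 48 h libraries, against 3.37 and 5.96 CPM in the 36 h libraries (log2 change 3.02 ± 0.28 (SE), adjusted p = 0.00467). *lncRNA:CR45668* was lower, with 17.5 and 22.1 CPM in the 48 h libraries, against 86.0 and 65.4 CPM in the 36 h libraries (log2 change -1.79 ± 0.27 (SE), adjusted p = 0.0171). *lncRNA:noe*, the most abundant that was not called, had 12042 and 11512 CPM in the 48 h libraries, against 6121 and 9229 CPM in the 36 h libraries (log2 change 0.78 ± 0.30 (SE), adjusted p = 0.182). None of 11 tested genes of sex determination and dosage compensation was called, a short list beside 6.93% called over all tested genes. Replicates differed in *lncRNA:roX1* of that list, with 1939 and 994 CPM at 48 h against 1320 and 2045 CPM at 36 h APF. The paper states that brains of both sexes were analysed at pupal stages. The share of each sex in a library was not tested. The calls of *CG14186*, *Gadd45* and *Xrp1* were lost without either 36 h library (adjusted p 0.0787 to 0.196). *lncRNA:CR45668* lost its call without 36 h APF replicate 1 (adjusted p = 0.0652). Among long non-coding RNAs, 31, 24, 5 and 4 were higher and 24, 30, 5 and 2 were lower with 1 library left out.

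Whether the subtypes shared these changes was asked with cells that carried *dac* but no *bi*, the pattern of subtypes a and b, and cells that carried *bi* but no *dac*, the pattern of subtypes c and d, from the same 4 libraries. There were 1646 and 2700 dac cells at 48 h against 607 and 2003 at 36 h APF, and 1706 and 3606 bi cells at 48 h against 618 and 3579 at 36 h APF. Of the called genes with values in both classes, 313 of 318 higher genes had a positive change in both and 224 of 226 lower genes a negative change in both; the same cells had entered the comparison of all cells. The change itself differed between the classes, by at least 2-fold in an interaction test, in 185 of 7391 tested genes (2.5%), of which 74 were among these 544 called genes. The change of *hid* was larger in dac cells, where it had 21.7 and 10.2 CPM at 48 h against 908 and 501 CPM at 36 h APF. In bi cells it had 86.5 and 19.3 CPM against 333 and 178 CPM (difference of the log2 changes -3.001, adjusted p = 7.04e-05). *dpr11* was already at 629 and 512 CPM in dac cells at 36 h APF, and had 823 and 939 CPM at 48 h against 6.99 and 31.6 CPM at 36 h APF in bi cells (difference -3.87, adjusted p = 0.000562). *Frq1* had the opposite order, with 256 and 548 CPM at 48 h against 13.8 and 28.3 CPM at 36 h APF in dac cells. In bi cells it had 546 and 688 CPM against 249.5 and 202 CPM (difference 2.62, adjusted p = 0.00165). In both genes 1 class stood far below the other at 36 h APF, and at 48 h APF the classes were within 3-fold of each other. *ple* was found mostly in bi cells, with 805 and 479.5 CPM in them at 48 h APF and 33.6 and 29.3 CPM in dac cells (difference of the log2 changes -2.92, adjusted p = 0.00530). Without 36 h APF replicate 1, the change differed between dac and bi cells in 113 genes.

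**Figure D4:**
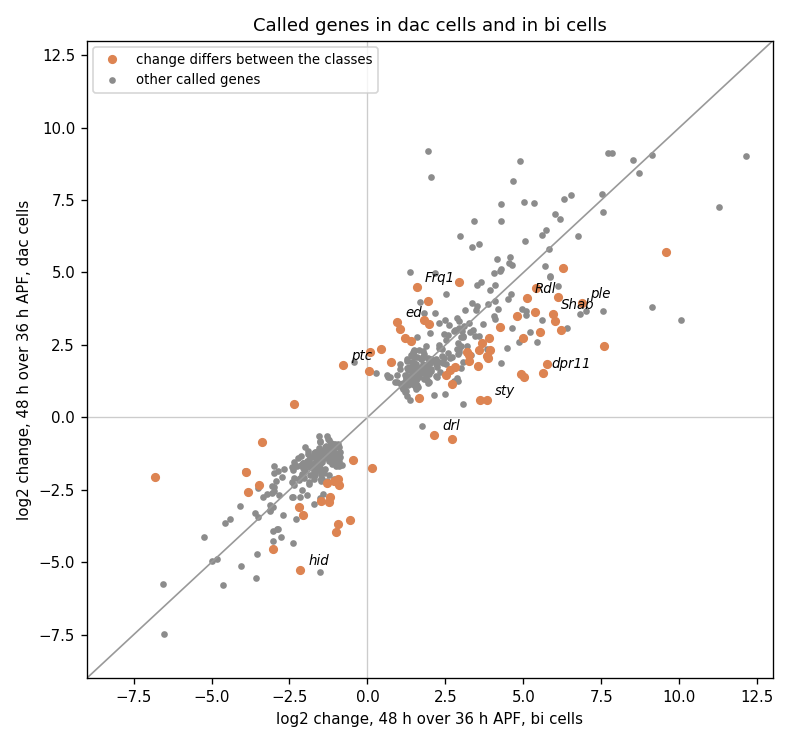
Log2 change between 48 h and 36 h APF in dac cells (vertical axis) and in bi cells (horizontal axis), each point a gene called in all cells with values in both classes (544 genes); orange points are the 74 genes whose change differed between the classes, and the grey line marks equal changes. Most points lie in the quadrants where both classes moved the same way, but the same cells had entered the comparison that called these genes. *hid*, *dpr11* and *Frq1* lie off the line.

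Cells with *TfAP-2* but no *CG34355* stood for the T4 pattern, and cells with *CG34355* but no *TfAP-2* for the T5 pattern. There were 1819 and 4204 TfAP-2 cells at 48 h against 565 and 3489 at 36 h APF. CG34355 cells numbered 616 and 1300 at 48 h against 294 and 1259 at 36 h APF. A single UMI placed a cell, and kept cells with neither pattern were left out. Of the called genes with values in both classes, 302 of 314 higher genes and 222 of 222 lower genes had fitted changes of that sign in both. By at least 2-fold in each class, 470 of the 536 did so. The same cells had entered the comparison that called these genes, so this agreement was in part built in. The change differed between the classes in 139 of 7115 tested genes (1.95%), of which 59 were called in all cells. *side-III* differed more between the stages in TfAP-2 cells than in CG34355 cells, with 272 and 173 CPM at 48 h against 56.4 and 41.1 CPM at 36 h APF in the first class. In the second it had 205 and 118 CPM against 107 and 121 CPM (difference of the log2 changes 1.86, adjusted p = 3.33e-09). *DIP-theta* was higher in CG34355 cells than in TfAP-2 cells at 48 h APF. In CG34355 cells it had 65.7 and 90.3 CPM at 48 h against 0 and 0.374 CPM at 36 h APF. In TfAP-2 cells it had 5.62 and 10.3 CPM against 0 and 0.543 CPM (difference -3.73, adjusted p = 0.0258). All kept cells together had 60.4 and 65.6 CPM of *DIP-theta* at 48 h APF, so its transcripts also lay in cells of neither class. *neur* had 85.5 and 44.2 CPM at 48 h against 18.8 and 12.3 CPM at 36 h APF in TfAP-2 cells. In CG34355 cells it had 8.97 and 8.25 CPM against 14.9 and 9.35 CPM (difference 2.43, adjusted p = 2.40e-06).

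The libraries of 24 h and 72 h APF, which took no part in the comparison, show how the 553 genes stood at the ends of the time course. Between 72 h and 24 h APF, 1657 of 8194 genes were higher (20.2%) and 1724 lower (21%), together 41.3% of the genes. Of the 326 genes higher at 48 h than at 36 h APF, 313 could be tested there, and of these 290 were also higher at 72 h than at 24 h APF, 3 were lower and 20 were not called. Of the 227 lower genes, 225 could be tested there, and of these 194 were also lower at 72 h APF, 7 were higher and 24 were not called. These shared genes are 17.5% of the higher and 11.3% of the lower genes of the longer interval. *CG17778* and *hid* were among those not called, with means of 75.5 CPM at 72 h and 129 CPM at 24 h APF and of 121 CPM and 287 CPM.

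**Figure D5:**
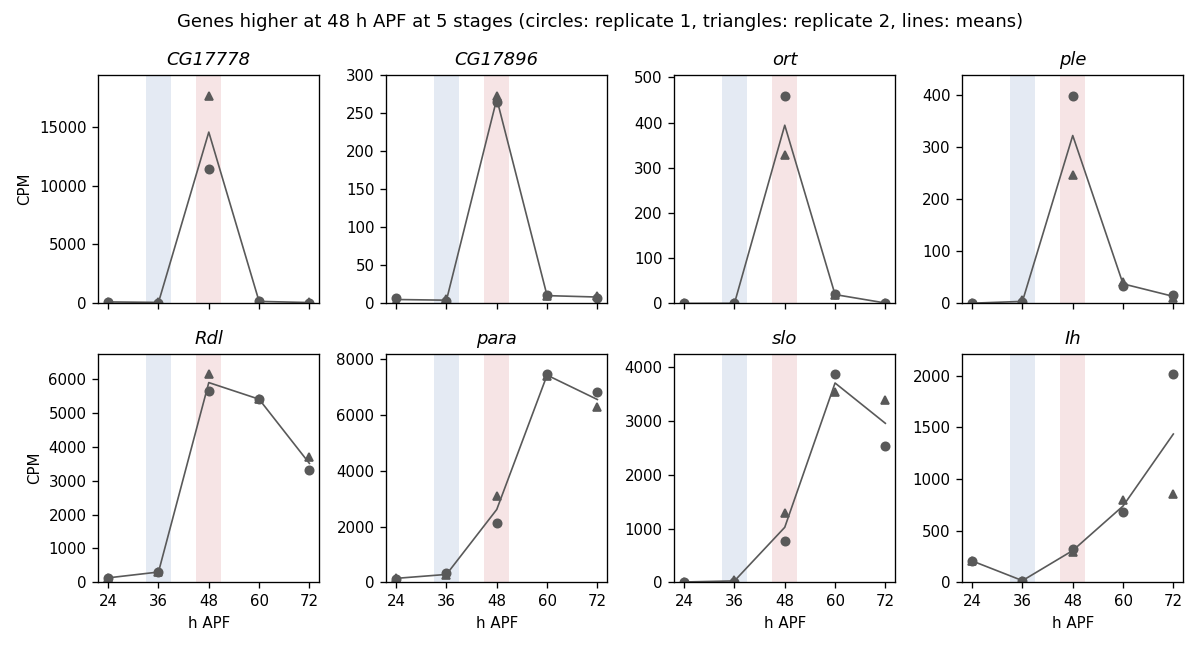
CPM (linear axes from 0) of 8 genes that were higher at 48 h than at 36 h APF, at 24, 36, 48, 60 and 72 h APF, with 1 point for each library and lines through the stage means; the 36 h and 48 h stages are shaded blue and red. *CG17778*, *CG17896*, *ort* and *ple* are high at 48 h APF more than at any other of the 5 stages, whereas *Rdl*, *para*, *slo* and *Ih* are still high at 60 h and 72 h APF.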

How the data were processed

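Brains of SS00324-Gal4, UAS-mCD8::GFP pupae were dissociated, GFP+ cells were sorted with propidium iodide to remove dead cells, and libraries were made with 10x Genomics 3′ chemistry. The authors aligned reads with Cell Ranger 3 to an Ensembl fly genome with the transgenes added and deposited UMI counts per gene and barcode; the files hold raw counts of 17757 rows, 4 of them transgenes. Stress filters of the study are not applied in them. Here, barcodes were kept as stated, doublets were kept, and counts were summed per library. The 4 libraries were fitted with edgeR 4.0.16 (R 4.3.3) by the quasi-likelihood test with TMM factors, filterByExpr (minimum count 10) and Benjamini-Hochberg adjustment over all tested genes. Interactions of stage and class were fitted with library as a block on cells with at least 2 UMIs of *dac* or *bi*, or 1 of *TfAP-2* or *CG34355*, and 0 of the other. Mean CPM is over the 2 libraries of a stage. The SE is the absolute log2 change divided by the square root of the F statistic of the quasi-likelihood test. It is not a separate estimate of precision, least of all for genes near 0 UMIs at a stage.

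Named genes are the 10 with the largest and the 10 with the smallest change among called genes of at least 50 CPM whose libraries do not overlap between stages, in each list up to 3 called genes per direction with the smallest adjusted p and at least 20 CPM, and the most abundant uncalled member; other named genes were chosen after their values were seen. The comparison and the gene lists were chosen with earlier results of these data known. Gene IDs were matched to BDGP6.54, and 17626 of 17753 had a position there. Some other named genes, among them *Hr3*, *para* and *Con*, also overlap annotated genes on their strand. The kept cells' sums of 10439365 to 50489118 UMIs per library make 1 CPM about 10 to 50 UMIs, and intervals cover counting error only. Doublets were scored with Scrublet in scanpy 1.11.5, and DESeq2 1.42.0 was an alternative. Between 1 and 19 barcodes were shared by any pair of the 4 libraries. Data from simulated counts were used to test the fits.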

Additional observations from a re-analysis of the deposited data

Results flagged for a closer look

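Some genes named above changed by different amounts in the cell classes, by an interaction test in edgeR with an adjusted p under 0.05 and a difference of at least 2-fold. The values are the log2 change between 48 h and 36 h APF in dac cells minus that in bi cells. Positive values were found for *Frq1* (2.62), *ptc* (2.44), *ed* (2.28), *side-III* (1.27), *TkR99D* (1.25) and *lncRNA:CR44320* (1.09), and negative values for *dpr11* (-3.87), *hid* (-3.001), *sty* (-3.004), *ple* (-2.92), *drl* (-2.87), *Shab* (-2.27), *dpr16* (-2.09), *MYPT-75D* (-1.35), *Drl-2* (-1.30), *dpr12* (-1.23), *Rdl* (-1.05) and *Nmdar2* (-1.03).

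For *ed*, the CPM in dac cells was 425 and 294 at 48 h against 45.5 and 39.1 at 36 h APF, and in bi cells 31.2 and 23.9 against 16.6 and 14.4. For *Shab*, it was 178 and 246 against 21.5 and 20.3 in dac cells and 149 and 211 against 1.75 and 4.21 in bi cells. For *sty*, it was 311 and 367 against 288 and 231 in dac cells and 257 and 375 against 8.52 and 39.6 in bi cells, so that its level in dac cells differed little between the stages.

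The same difference taken as TfAP-2 cells minus CG34355 cells was positive for *neur* (2.43), *side-III* (1.86), *MYPT-75D* (1.43), *CG44837* (1.09) and *lncRNA:CR44978* (1.06), and negative for *DIP-theta* (-3.73), *lncRNA:CR44320* (-1.56), *hid* (-1.46), *Apoltp* (-1.44), *lncRNA:CR43334* (-1.19), *Rdl* (-1.15) and *fz* (-1.01). *hid*, *Rdl*, *MYPT-75D*, *side-III* and *lncRNA:CR44320* differed in both pairs of classes.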

How the results depend on the processing

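No gene of the 553 changed the sign of its difference under any of the 16 alternatives, and of the values of the named genes 1542 stayed on their side of the threshold, 101 fell below it and 16 passed it. The number of calls was 1032 (627 higher, 405 lower) with no filter on low counts, 853 (507 higher, 346 lower) with all 10 libraries in the fit, and 143 (83 higher, 60 lower) in cells with Hsp genes at 1% or less, which numbered 259 and 930 in the 48 h libraries against 68 and 116 in the 36 h libraries. With 1 library left out it ran between 145 and 1007 (102 to 655 higher, 43 to 352 lower). DESeq2 called 799 genes, of which 549 were among the 553, and the other settings of scaling and of cells called 515 to 644. Scaling by library totals called 307 higher and 312 lower genes (49.6% higher, against 59.0% with TMM factors). Same-numbered libraries deviated together (correlation 0.36 over 7977 genes), but with 2 numbers this does not show that they pair the samples; a replicate block called 758 genes, all 553 among them (445 higher, 313 lower), and 3397 genes between 72 h and 24 h APF. For the difference between dac and bi cells, leaving out 1 library gave 113 to 204 genes (34 to 67 with positive, 79 to 137 with negative values). For TfAP-2 and CG34355 cells it gave 94 to 148 genes (55 to 109 positive, 30 to 60 negative), and a threshold of 1 UMI more gave 91 (50 positive). Between 72 h and 24 h APF it gave 1523 to 3845 genes (728 to 1741 higher, 795 to 2104 lower). With 1 of the 4 libraries left out, 1 library stands for its stage and is assumed to vary like the other stage's pair. The SD of the log2 difference between replicates, over 4211 genes of at least 20 CPM, was 0.584 at 48 h and 0.480 at 36 h APF. The cause of these differences in the number of calls was not tested. *AstC-R2*, *Inx2* and *lncRNA:CR43334* lost their calls only in cells with Hsp genes at 1% or less (adjusted p = 0.148, 0.0662 and 0.148, edgeR's quasi-likelihood test). Other named genes, among them *ptc* and *CG14186*, lost theirs there and in other settings.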

Other observations

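Of the 553 called genes, 427 belonged to none of the lists (242 higher, 185 lower), and the following were chosen from them after their values were seen. Several higher genes code for ion transport that the channel list does not hold. *NaCP60E*, which resembles voltage-gated calcium and sodium channels, had 122 and 192 CPM in the 48 h libraries, against 4.82 and 5.31 CPM in the 36 h libraries (log2 change 5.10 ± 0.33 (SE), adjusted p = 0.00214). *kcc*, the potassium/chloride cotransporter that keeps chloride low in neurons, had 35.7 and 42.2 CPM in the 48 h libraries, against 1.25 and 2.19 CPM in the 36 h libraries (log2 change 4.59 ± 0.29 (SE), adjusted p = 0.00214), and *Ndae1*, a sodium-driven anion exchanger, had 56.2 and 70.7 CPM in the 48 h libraries, against 14.7 and 21.5 CPM in the 36 h libraries (log2 change 1.96 ± 0.24 (SE), adjusted p = 0.0110). *jus*, whose mutants have seizures, had 758 and 885 CPM in the 48 h libraries, against 65.4 and 83.3 CPM in the 36 h libraries (log2 change 3.62 ± 0.26 (SE), adjusted p = 0.00239). *Octalpha2R*, an octopamine receptor, had 63.7 and 89.1 CPM in the 48 h libraries, against 16.2 and 19.1 CPM in the 36 h libraries (log2 change 2.26 ± 0.25 (SE), adjusted p = 0.00749), and *Pde9*, a phosphodiesterase of cyclic nucleotides, had 253 and 244 CPM in the 48 h libraries, against 10.0 and 13.1 CPM in the 36 h libraries (log2 change 4.58 ± 0.25 (SE), adjusted p = 0.00142).

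Among the lower genes, *Abl*, a tyrosine kinase that acts on the growth cone cytoskeleton, had 254 and 251 CPM in the 48 h libraries, against 891 and 887 CPM in the 36 h libraries (log2 change -1.67 ± 0.23 (SE), adjusted p = 0.0148). The lower genes also include 3 with roles in DNA replication or repair, for which no list was tested: *Top2*, topoisomerase 2, had 15.2 and 20.2 CPM in the 48 h libraries, against 88.2 and 74.4 CPM in the 36 h libraries (log2 change -2.06 ± 0.26 (SE), adjusted p = 0.0110), *geminin*, a regulator of replication licensing, had 8.89 and 12.3 CPM in the 48 h libraries, against 34.0 and 41.0 CPM in the 36 h libraries (log2 change -1.67 ± 0.23 (SE), adjusted p = 0.0143), and *Rrp1*, a DNA repair nuclease, had 5.51 and 4.26 CPM in the 48 h libraries, against 44.3 and 45.6 CPM in the 36 h libraries (log2 change -3.06 ± 0.23 (SE), adjusted p = 0.00251). None of the 3 tested markers of neuroblasts and dividing cells was called, and their part in these differences was not tested. Both subunits of the SUMO-activating enzyme were lower, *Uba2* with 44.2 and 47.0 CPM in the 48 h libraries, against 123 and 179.7 CPM in the 36 h libraries (log2 change -1.57 ± 0.24 (SE), adjusted p = 0.0173) and *Aos1* with 30.8 and 34.1 CPM in the 48 h libraries, against 74.7 and 82.7 CPM in the 36 h libraries (log2 change -1.13 ± 0.20 (SE), adjusted p = 0.0273). *Sod1*, superoxide dismutase, had 152 and 184 CPM in the 48 h libraries, against 557 and 766 CPM in the 36 h libraries (log2 change -1.82 ± 0.26 (SE), adjusted p = 0.0150), and *CCT2* and *CCT7*, subunits of a chaperonin that folds actin and tubulin, had log2 changes of -1.48 ± 0.22 and -1.09 ± 0.19.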
